A study of Saccharomyces cerevisiae with 103 samples.

Results

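The 44 genes described here encode proteins of the small-subunit processome of budding yeast, Saccharomyces cerevisiae. They were chosen by systematic name from a fixed list, with no measured value in the rule, but with earlier results of these data known. All 44 were found among the 6692 genes of the deposited tables. They comprise the 7 subunits of UTP-A (UTP4, UTP5, UTP8, UTP9, UTP10, UTP15 and NAN1), 6 subunits of UTP-B (PWP2, UTP6, DIP2, UTP13, UTP18 and UTP21), UTP22 of UTP-C with RRP5, the 5 proteins of the U3 snoRNP (NOP1, NOP56, NOP58, SNU13 and RRP9) and the 3 of the MPP10 complex (MPP10, IMP3 and IMP4). The others are 4 further enzymes (BMS1, RCL1, KRE33 and EMG1), 4 RNA helicases (ECM16, ROK1, DBP4 and DBP8) and 13 further assembly factors (UTP7, UTP11, UTP14, UTP20, UTP23, UTP30, SOF1, ENP1, ENP2, NOP14, KRR1, LCP5 and BFR2).

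The processome is a large particle that forms in the nucleolus on the nascent precursor of ribosomal RNA. UTP-A binds the 5′ external spacer of the precursor first, UTP-B and the U3 snoRNP follow, and the base pairing of U3 RNA with the precursor sets up the folding and cleavages that release the 18S rRNA of the small ribosomal subunit. In yeast its genes belong to the ribosome biogenesis regulon, which is known to be strongly expressed in rich medium and repressed on starvation, and whose promoters often hold 2 sequence elements named PAC and RRPE.

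All cells were of the strain SK1, a yeast that sporulates rapidly. In the first experiment wild-type (WT) cultures, pregrown in YPD and then BYTA, were moved into sporulation medium (SPO) and sampled each hour from 0 to 9 h, with 2 replicates per hour. In the second, WT cells that had spent 1 or 7 h in SPO were put back into YPD 2%, a rich glucose medium; samples were taken at the time of transfer (called before transfer) and 5 and 20 min later, with 2 replicates each. The third compared WT, ccr4delta/delta, pop2delta/delta and xrn1delta/delta strains in vegetative growth in YPD 2% (Veg), after premeiotic growth in BYTA (Pre) and after 5 h in SPO (Mei). Ccr4 and Pop2 are deadenylases of the Ccr4-Not complex, which shortens poly(A) tails, and Xrn1 is the exonuclease that removes mRNA from its 5′ end once the cap is gone. The fourth compared a WT control with degron-Xrn1 cells in YPD 2% before and 30 min after 500 µM auxin and 50 µM CuSO4, which trigger degradation of the Xrn1 protein. The fifth compared a WT control with pCup1-Ccr4 cells, in which the copper-responsive Cup1 promoter drives CCR4, before and 60 min after 50 µM CuSO4. The last 3 experiments had 1 library of each kind per group.

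In each group RNA levels were measured by RNA-seq and poly(A) tails by tags that read the tail's length, with 50 libraries of each kind. Another 3 RNA-seq libraries of the third experiment were fragmented before adapter ligation. RNA-seq libraries held 132594 to 4689131 counts, of which the 44 genes had 225 to 104201, and poly(A) tag libraries held 71930 to 8926553 tags, of which the 44 genes had 24 to 44951. The smallest RNA-seq library was replicate 2 of cells at 7 h before transfer, in which UTP22, IMP3, KRE33 and UTP30 had no count. The deleted genes were at 0 to 4.37 CPM in their own deletion libraries, and in WT NDT80, a transcription factor of middle meiosis, was at 50.9 and 30.5 CPM at 0 h and 1608 and 1687 CPM at 6 h in the 2 libraries of each hour. RNA levels are given in CPM, counts scaled to a common library size after TMM adjustment, so they are shares of each library, and fewer cells of a type cannot be told apart from less RNA per cell. "Rose" and "fell" refer to a Benjamini-Hochberg adjusted p under 0.05 over all genes tested. Nothing in the labels ties the replicates to different cultures, so the spread behind the p-values may be technical.

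The promoters are shown first because the members changed level together and PAC and RRPE are the elements known for this regulon. Segments of 170 bases, from 230 to 61 bases before the start codon, are given from the RefSeq R64 reference genome (the build sacCer3), whose letters can differ from those of SK1. They are printed for UTP13 and NOP56, which had the deepest falls with UTP15 in SPO, for ROK1, which recovered most between 1 and 5 h, for MPP10, which rose least at 5 min on return to growth from 1 h, and for UTP30, which has neither element. Capitals mark the PAC core GATGAG, on either strand, and the RRPE core AAAATTTT.
UTP13 (chrXII:581832-582001, minus strand): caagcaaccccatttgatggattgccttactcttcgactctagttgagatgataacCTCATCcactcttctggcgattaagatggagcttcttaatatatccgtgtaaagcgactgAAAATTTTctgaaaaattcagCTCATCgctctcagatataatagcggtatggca
NOP56 (chrXII:545867-546036, plus strand): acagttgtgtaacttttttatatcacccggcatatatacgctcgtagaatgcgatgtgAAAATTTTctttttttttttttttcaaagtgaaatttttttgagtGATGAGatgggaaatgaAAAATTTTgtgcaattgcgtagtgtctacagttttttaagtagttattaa
ROK1 (chrVII:182160-182329, plus strand): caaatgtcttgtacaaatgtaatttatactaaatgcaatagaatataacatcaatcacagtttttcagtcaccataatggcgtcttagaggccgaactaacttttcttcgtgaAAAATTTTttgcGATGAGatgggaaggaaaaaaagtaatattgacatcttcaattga
MPP10 (chrX:438635-438804, plus strand): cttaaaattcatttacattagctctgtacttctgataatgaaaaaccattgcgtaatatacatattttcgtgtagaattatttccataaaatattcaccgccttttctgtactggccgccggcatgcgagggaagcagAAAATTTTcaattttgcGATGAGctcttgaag
UTP30 (chrXI:556288-556457, plus strand): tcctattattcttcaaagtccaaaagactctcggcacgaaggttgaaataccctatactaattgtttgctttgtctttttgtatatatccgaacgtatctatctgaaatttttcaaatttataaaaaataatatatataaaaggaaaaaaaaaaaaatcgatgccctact

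Each motif was searched on both strands from 250 bases before to 50 bases after the start codon, and sites were allowed to overlap. GATGAG was present in 40 of 44 member windows (90.91%) and in 20.36% of 6001 windows of all genes. The longer form GCGATGAG, which contains the PAC core, was in 24 members (54.55%) and in 3.933% of all windows. AAAATTTT, which reads the same on both strands, was in 34 members (77.27%) and in 9.032% of all windows. Both cores stood together in 33 members (75%) and in 4.383% of all windows. UTP15 had the RRPE core without the PAC core, and UTP22, EMG1 and UTP30 had neither. In NOP56 the PAC core lay 127 bases before the start codon, between RRPE cores at 172 and 110 bases. In UTP13 PAC cores lay at 174 and 93 bases and the RRPE core at 114. Over the members the nearest PAC core lay a median of 109 bases before the start codon (68 to 204, 39 members with a core upstream), and the nearest RRPE core a median of 127.5 bases (33 to 225, 34 members).

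**Figure D1:**
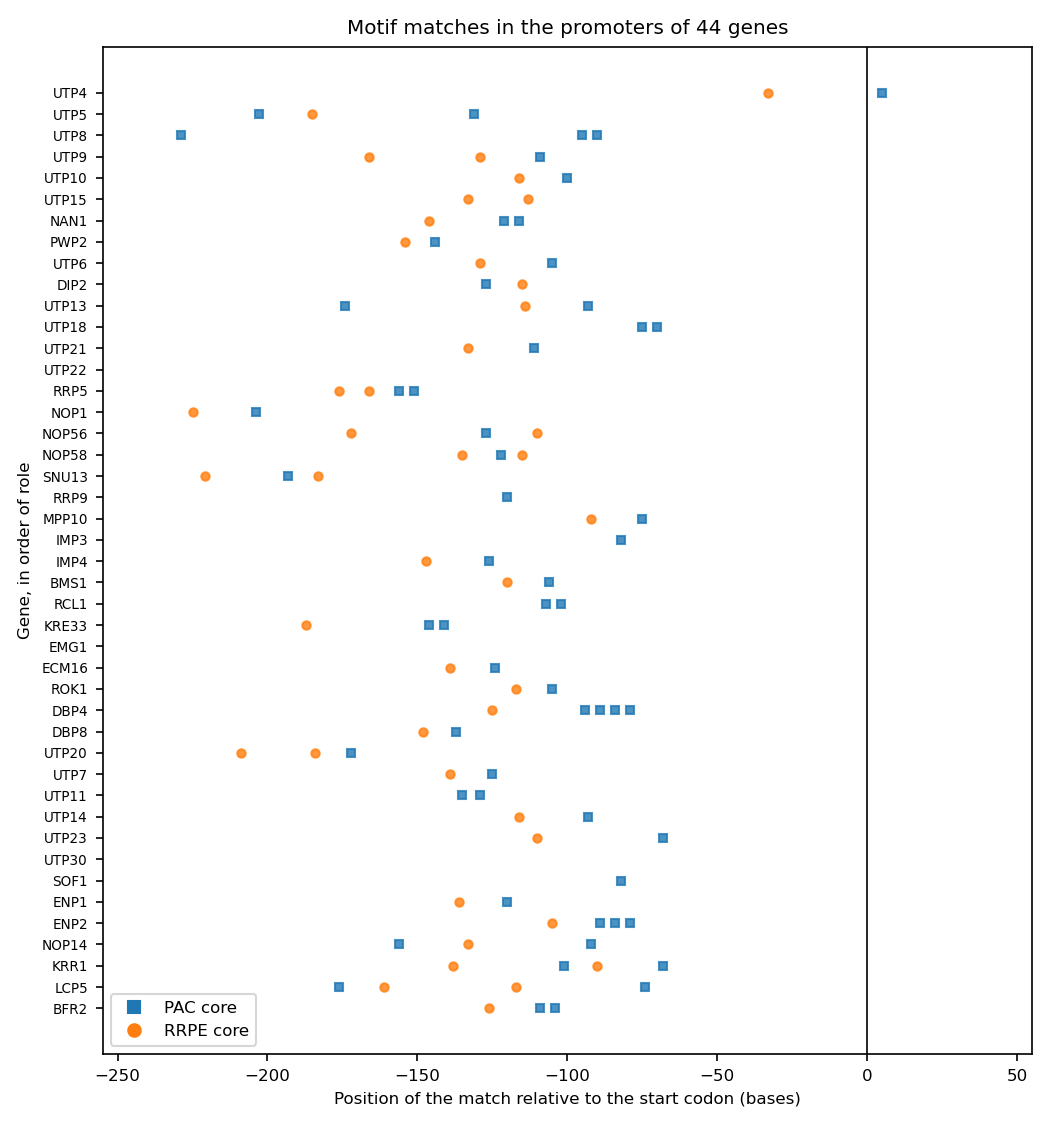
Matches to the PAC core (squares) and the RRPE core (circles) around the start codon of the 44 genes. The horizontal axis is the position relative to the start codon in bases and each row is a gene; 40 rows have a PAC core, 34 an RRPE core and 3 neither, and most matches lie between 50 and 200 bases upstream.

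All 44 processome genes fell within the 1st hour of sporulation. Their summed level went from 3872 and 3953 CPM in the 2 libraries at 0 h to 457 and 434 CPM at 1 h, and the fall took in every subcomplex. By the quasi-likelihood test of edgeR, 44 of 44 fell between 0 and 1 h, with a median log2 fold change of -3.39, while over all 6269 genes tested 29.2% fell and the median was 0.02. Of a list of 34 other small-subunit factors, 32 fell, with a median of -2.34.

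The U3 snoRNP proteins fell most as a group, with a median log2 fold change of -4.31. NOP56 (YLR197W), a core protein that holds box C/D snoRNPs together, was at 265 and 286 CPM at 0 h and at 6.76 and 8.77 CPM at 1 h. The libraries of the 2 times did not overlap (log2 fold change -5.11, SE 0.22, adjusted p = 1.74e-17, edgeR). NOP58, its partner in the core, was at 241 and 262 CPM and then at 8.26 and 7.67 CPM. NOP1, the methyltransferase of the same particles, was at 222 and 184 CPM and then at 10.5 and 13.7 CPM. These 3 and SNU13, the RNA-binding protein that nucleates the particle and also binds U4 snRNA, each had libraries at 1 h far under those at 0 h, with log2 fold changes of -4.98 for NOP58, -4.03 for NOP1 and -4.31 for SNU13. RRP9 (YPR137W), the U3-specific protein, fell least of the 5, from 76.6 and 87.8 CPM to 19.5 and 19.2 CPM (log2 fold change -2.08, SE 0.23, adjusted p = 5.36e-09, edgeR).

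Among the other subcomplexes UTP-A had a median log2 fold change of -3.48, UTP-B of -3.61, UTP22 with RRP5 of -3.07, the MPP10 complex of -2.78, the enzymes of -3.02, the helicases of -2.90 and the 13 further factors of -2.76. UTP13 (YLR222C), a WD-repeat subunit of UTP-B, had the largest log2 fold change of the 44. It was at 80.9 and 79.0 CPM at 0 h and at 2.25 and 0.548 CPM at 1 h, so the 1 h value rests on few counts (log2 fold change -5.91, SE 0.39, adjusted p = 1.46e-13, edgeR). UTP15, a UTP-A subunit, followed (log2 fold change -5.15, SE 0.39, adjusted p = 3.69e-12, edgeR). The smallest falls were those of BMS1 (YPL217C), a GTPase that recruits RCL1, ECM16, the helicase that later releases U3, and UTP7. BMS1 was at 126 and 107 CPM at 0 h and at 54.8 and 52.1 CPM at 1 h (log2 fold change -1.13, SE 0.14, adjusted p = 9.91e-08, edgeR). ECM16 and UTP7 had log2 fold changes of -1.63 and -1.85.

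The 33 members with both cores had a median log2 fold change of -3.48, with a range from -5.91 to -1.13, so the member with the deepest fall and the one with the shallowest both carry both cores. The 7 members with the PAC core alone had a median of -3.23, and the 3 with neither core had a median of -2.42. UTP15, the 1 member with the RRPE core alone, was at -5.15. These values are a description, and the presence of letters in a window says nothing of the factors that bind there.

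**Figure D2:**
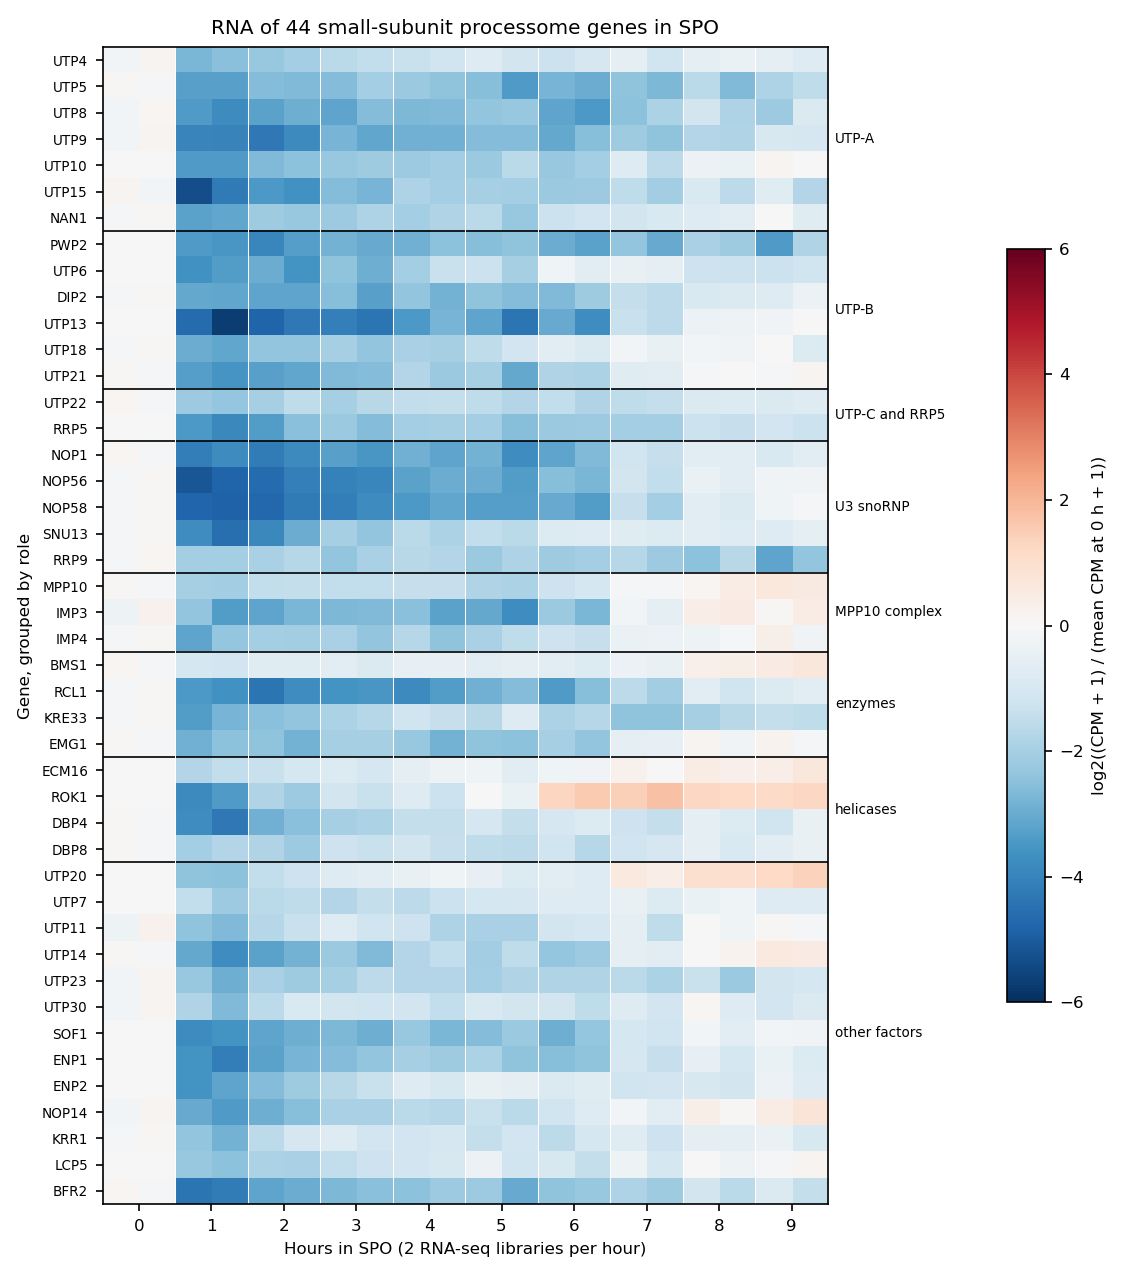
RNA of the 44 genes over the hours in SPO. Each row is a gene, grouped by role, and each column a library, 2 per hour; colour gives log2 of CPM + 1 over the mean CPM + 1 at 0 h, blue for lower and red for higher. The 1 h columns are blue in every row, and from 6 h on ROK1 is red, joined later by UTP20.

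From 1 h on the members recovered gradually. The summed level was 623 and 721 CPM at 2 h, 889.9 and 878 CPM at 3 h, 1101 and 1113 CPM at 4 h and 1182 and 1062 CPM at 5 h. Between 1 and 5 h 33 of 44 rose and 0 fell (median log2 fold change 1.44), against 28.2% of all genes that rose. Without replicate 1 of 5 h the number was 18. ROK1 (YGL171W), a DEAD-box helicase of early precursor processing, recovered most. ROK1 was at 3.0 and 4.38 CPM at 1 h, at 24.7 and 20.9 CPM at 3 h and at 54.9 and 42.0 CPM at 5 h (log2 fold change 3.71, SE 0.35, adjusted p = 5.57e-10, edgeR). Its libraries at 5 h were already close to the 0 h libraries, at 53.8 and 56.3 CPM, and at 7 h ROK1 stood at 151 and 191 CPM. DBP4 and UTP15 followed, with log2 fold changes of 3.17 and 3.08. Of the 3 proteins of the MPP10 complex, which stabilises the pairing of U3 with the precursor, 0 rose in these hours by edgeR, and 1 had an unadjusted p under 0.05. MPP10 (YJR002W) had 24.0 and 23.0 CPM at 1 h and 27.8 and 26.1 CPM at 5 h (log2 fold change 0.21, SE 0.23, adjusted p = 0.457, edgeR): the 5 h libraries lay just above those of 1 h, and the difference did not pass the threshold. IMP3 had 5.26 and 2.19 CPM and 2.89 and 1.45 CPM (adjusted p = 0.589, edgeR), and RRP9 had 19.5 and 19.2 CPM and 16.8 and 21.7 CPM (adjusted p = 0.852, edgeR). Of the other small-subunit factors 25 rose and 1 fell.

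A second rise came between 6 and 9 h. The summed level was 1308 and 1361 CPM at 6 h, 2204 and 1920.2 CPM at 7 h, 2955 and 2780.3 CPM at 8 h and 3258 and 3356 CPM at 9 h. From 5 to 9 h 31 of 44 rose and 0 fell (median 1.23), against 24.5% of all genes. IMP3 (YHR148W) had the largest log2 fold change: its libraries stayed between 2.89 and 1.45 CPM at 5 h and 6.04 and 3.91 CPM at 6 h, and then stood at 27.7 and 21.4 CPM at 7 h and 33.1 and 43.6 CPM at 9 h (log2 fold change 3.97, SE 0.52, adjusted p = 3.36e-07, edgeR). The 5 h value of IMP3 rests on 5 and 1 counts. The step fell between 6 and 7 h and all later libraries lay above all earlier ones from 1 h on. UTP13 was at 8.83 and 5.21 CPM at 6 h, 31.1 and 25.9 CPM at 7 h and 69.0 and 82.6 CPM at 9 h (log2 fold change 3.55, SE 0.36, adjusted p = 3.44e-09, edgeR). NOP58 rose by 3.20 and NOP56 by 2.90 on the log2 scale, and NOP56 returned to 240.0 and 237 CPM. RRP9 (-0.54), KRE33 (-0.20) and ENP2 (-0.10) had the lowest log2 fold changes, and none of the 3 passed the threshold.

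At 9 h the members no longer stood in the proportions of 0 h. Compared with 0 h, 7 were higher and 22 lower (median -0.58), where over all genes 28.5% rose, 34.2% fell and the median was -0.15. UTP20 (YBL004W), a very large helical-repeat protein of the particle, rose from 111 and 108 CPM at 0 h to 254 and 285 CPM at 9 h (log2 fold change 1.31, SE 0.14, adjusted p = 5.26e-09, edgeR). ROK1 and NOP14 rose by 1.24 and 0.68 on the log2 scale, and BMS1, MPP10, ECM16 and UTP14 were the other 4. RRP9 was at the opposite end, with 8.28 and 15 CPM at 9 h on 3 and 10 counts (log2 fold change -2.70, SE 0.35, adjusted p = 1.15e-07, edgeR). Its level had stayed between 8.28 and 25.2 CPM in all libraries from 1 h on. PWP2, a UTP-B subunit, and UTP5, of UTP-A, had log2 fold changes of -2.24 and -1.68, and both fell. By group, 5 of 7 UTP-A genes fell and 0 rose, and of the 3 MPP10 complex genes 1 rose and 0 fell. Without replicate 2 of 9 h the split was 3 higher and 11 lower, so the count of changed members depends on that library.

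Tag counts were far lower in this experiment, with 24 to 592 tags for the 44 genes per library, and 14 members had enough to be tested. Between 0 and 1 h 7 of the 14 fell, against 14.4% of 3955 genes tested. The filter on low counts keeps members with few tags at 1 h only where other hours hold more, so this share is partly set by it. SNU13 (YEL026W) had 22 and 32 tags at 0 h and 0 in both libraries at 1 h. With a floor of 3 counts over the 1 h group the ratio is 17.3, and the exact 95% counting interval starts at 13.6. NOP58 had 13 and 10 tags and then 0, with a ratio of 7.36 by the same floor and an interval that starts at 5.52. NOP1 had 6 and 17 tags at 0 h and 1 in all at 1 h, a ratio of 22.1 with an exact 95% counting interval from 3.58 to 909. The other 4 were RRP5, NAN1, UTP10 and NOP56. From 1 to 5 h 1 member rose (SNU13; 13.4% of genes), from 5 to 9 h 2 rose (RRP5 and NOP1; 7.59% of genes), and DIP2 rose from 0 to 9 h (16.9% of genes). Single libraries decide several of these counts. The 7 were 4 without replicate 2 of 0 h and 2 without replicate 2 of 1 h, the 2 from 5 to 9 h were 0 without any 1 of the 4 libraries, and the 1 from 0 to 9 h was 0 without replicate 1 of 0 h or replicate 1 of 9 h. No member had the 20 tags per library that the tail test requires in all libraries of any 2 of these times, so tail lengths were not compared here.

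After return to rich medium every member rose within 5 min from both starting points. From 1 h in SPO the summed level went from 365 and 348 CPM before transfer to 14045 and 13739 CPM at 5 min and 30305 and 29236 CPM at 20 min. From 7 h it went from 1571 and 1786 CPM to 9437 and 10550.4 CPM at 5 min and then to 6459.7 and 7180.5 CPM at 20 min. The 5 min and 20 min groups of a starting point were compared with the same libraries before transfer. At 5 min 44 of 44 members rose from 1 h (median log2 fold change 5.84), where 27.4% of 6109 genes tested rose and the median of all genes was -0.43. From 7 h 44 of 44 rose at 5 min (median 2.62), where 26.3% of all genes rose and their median was 0.02. The 34 other small-subunit factors all rose in both, with medians of 4.79 and 2.08.

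**Figure D3:**
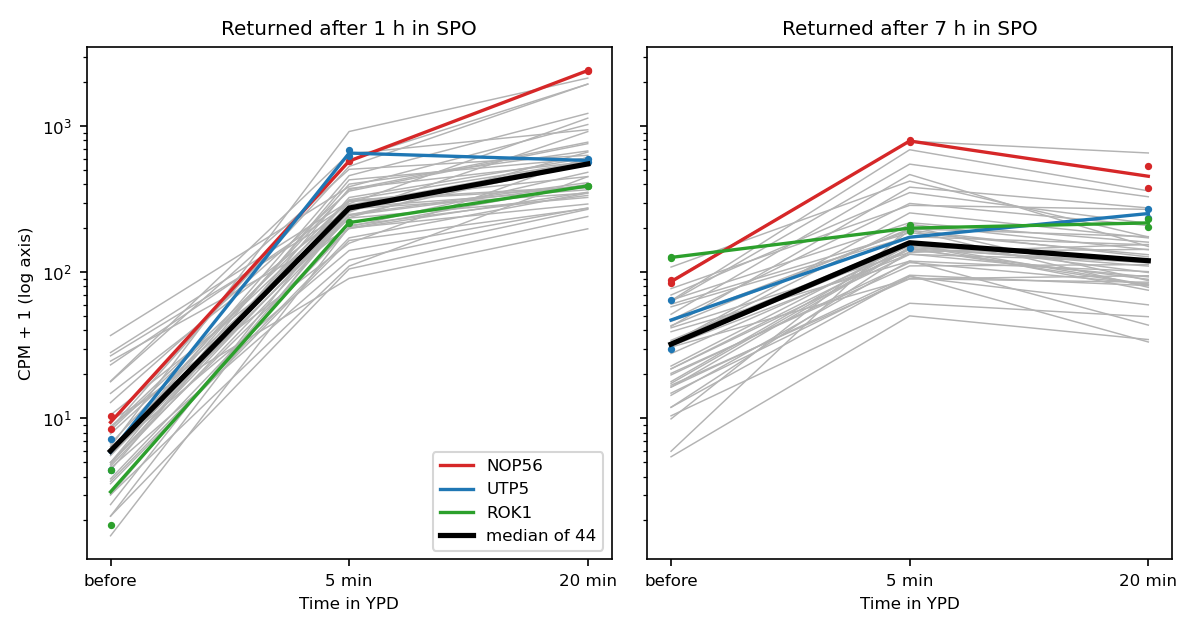
RNA of the 44 genes on return from SPO to YPD after 1 h (left) and 7 h (right). The vertical axis is CPM + 1 on a log scale; grey lines are the means of 2 libraries per gene, coloured lines are NOP56, UTP5 and ROK1 with points for each library, and the black line is the median of the 44. The median goes on rising after 5 min from 1 h and is lower at 20 min than at 5 min from 7 h.

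Of the U3 snoRNP proteins, NOP56 was at 7.42 and 9.39 CPM at 1 h in SPO, at 574 and 579 CPM after 5 min in YPD and at 2415 and 2396 CPM after 20 min (log2 fold change 6.11, SE 0.25, adjusted p = 7.87e-29 for 5 min; log2 fold change 2.06, SE 0.16, adjusted p = 2.99e-17 from 5 to 20 min; edgeR). From 7 h it was at 83.2 and 87.3 CPM, then 804 and 779 CPM and then 378 and 529.5 CPM (log2 fold change 3.24, SE 0.22, adjusted p = 5.18e-19 for 5 min; log2 fold change -0.83, SE 0.16, adjusted p = 5.36e-05 from 5 to 20 min; edgeR). The 3 times of each series did not overlap, and the 20 min libraries were the highest from 1 h and the middle ones from 7 h. NOP58 went from 5.71 and 5.12 CPM to 1008 and 831 CPM and 2226 and 2045 CPM from 1 h. From 7 h NOP58 went from 70.4 and 103 CPM to 731 and 848 CPM and 593 and 718 CPM.

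UTP13 had 2 counts in all before transfer at 1 h, so its change is given as a ratio: 299 at 5 min (exact 95% counting interval 82.4 to 2474) and 701 at 20 min (194 to 5790). Its levels after transfer were 194 and 213 CPM and 493 and 473 CPM, and the fitted log2 fold change at 5 min, 8.04, was the largest of the 44. UTP15 (7.57) and BFR2 (7.40) followed, also on few counts before transfer (4 and 0 for UTP15, 4 and 1 for BFR2). The smallest were those of MPP10, ECM16 (3.36) and BMS1 (3.41), of which the last 2 had also fallen least in the 1st hour of SPO. MPP10 went from 23.4 and 23.9 CPM to 196 and 199.5 CPM (log2 fold change 3.06, SE 0.19, adjusted p = 1.57e-20, edgeR). From 7 h the largest rises at 5 min were those of KRE33, an acetyltransferase that modifies 18S rRNA and tRNAs (4.55), of RRP5, an RNA-binding protein that serves both subunits (3.97), and of UTP8 (3.69). Before transfer KRE33 had 10 and 0 counts and UTP8 had 6 and 2, so their ranks rest on few counts. The smallest rise from 7 h was that of ROK1, which was already at 124 and 127 CPM at 7 h and stood at 189.5 and 209.8 CPM after 5 min (log2 fold change 0.69, SE 0.20, adjusted p = 0.00285, edgeR). UTP6 (1.41) and MPP10 (1.59) were next to it.

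The starting levels of the 2 series differed. Before transfer 39 of 44 members were higher at 7 h than at 1 h (median 2.21), against 29.2% of all genes, and the exceptions were UTP8, UTP22, RRP9, KRE33 and UTP30. ROK1 had the largest difference (log2 fold change 5.65, SE 0.35, adjusted p = 1.4e-20, edgeR), and UTP13 (4.76) and SOF1 (3.81) followed. Without replicate 1 of the 7 h cells the number was 19, which leaves the library with 132594 counts. In the test of the difference between the 2 responses, 42 of 44 responded less at 5 min from 7 h than from 1 h (median -2.93), against 15.7% of all genes, and KRE33 and UTP30 did not pass. That number was 23 without the same replicate. The difference was largest for ROK1 (-5.77), UTP13 (-5.24, with 2 counts before transfer) and UTP5 (-4.59). The levels reached at 5 min were nearer to each other than the fold changes: NOP56, for example, had 574 and 579 CPM from 1 h and 804 and 779 CPM from 7 h, a difference that was not tested.

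Between 5 and 20 min the 2 series parted. From 1 h 42 of 44 members rose further and 0 fell (median 0.98), where 41.1% of all genes rose, with a median of 0.24. With library totals alone as the scaling, all genes had a median of -0.49, the members had one of 0.24, and 18 members rose while 6 fell. The members' median stood above that of all genes by 0.74 under TMM and by 0.73 under library totals; a change of scaling shifts all genes by about the same amount. From 7 h 24 fell and 1 rose (median -0.53), where 14.8% of all genes fell, 16.1% rose and their median was 0.00; without replicate 1 of 20 min 9 members changed. The difference between the 2 changes, a test added after these directions had been seen, was below 0 in 41 members and above 0 in 1, where it was below 0 in 33.2% and above 0 in 27.5% of all genes (median of the members -1.39, of all genes -0.18). Under library totals it was below 0 in 27.

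RRP5 (YMR229C) showed the contrast most fully among the members with many counts. It went from 503 and 557 CPM at 5 min to 1951 and 1935 CPM at 20 min in the series from 1 h, and from 459 and 474 CPM to 150.1 and 148 CPM in the series from 7 h. The log2 fold changes were 1.87 and -1.64, and their difference was -3.51 (adjusted p = 2e-18, edgeR). EMG1, an rRNA methyltransferase, went from 102 and 117 CPM to 432 and 469.7 CPM from 1 h and from 137 and 99.9 CPM to 40.0 and 45 CPM from 7 h (difference -3.53, adjusted p = 1.65e-15, edgeR). UTP20 had a difference of -3.21. The largest rises from 1 h after 5 min were those of NOP56 (2.06), EMG1 (2.04) and KRR1 (1.96), and the largest falls from 7 h those of RRP5, EMG1 and UTP8 (-1.36).

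UTP5 (YDR398W), a UTP-A subunit, did not rise with the others from 1 h and rose from 7 h. It was at 687 and 621 CPM at 5 min and 595 and 569.6 CPM at 20 min from 1 h (log2 fold change -0.17, SE 0.15, adjusted p = 0.316, edgeR), and at 146 and 199.7 CPM and 270.1 and 233 CPM from 7 h (log2 fold change 0.54, SE 0.18, adjusted p = 0.0176, edgeR). It was the 1 member whose change from 5 to 20 min was greater from 7 h (difference 0.71 on the log2 scale, adjusted p = 0.00767, edgeR). Leaving out replicate 1 of either the 5 min or the 20 min group from 7 h gave differences of 0.52 and 0.55, which did not pass the threshold, and the rise from 7 h was lost without the same replicates (0.35 and 0.40) and under library totals (0.44). BFR2 also did not pass from 1 h (log2 fold change 0.31, adjusted p = 0.0504, edgeR), and under library totals NAN1 fell by 0.41 and BFR2 by 0.42.

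At 20 min all 44 members still stood above their level before transfer in both series, with medians of 6.70 from 1 h (38.4% of all genes rose) and 2.10 from 7 h (17.9% rose). The largest log2 fold changes from 1 h were those of UTP13, NOP58 (8.58) and NOP56 (8.17), and the smallest those of MPP10 (3.89), UTP7 (4.04) and ECM16 (4.39). From 7 h they ran from ROK1 (0.78), UTP20 (0.81) and MPP10 (1.03) to NOP58 (3.09), KRE33 (3.32) and BFR2 (3.39). Without replicate 1 of the 7 h cells 28 members rose. All 44 responded less from 7 h than from 1 h at 20 min (median -4.48), against 28.4% of all genes. The smallest differences were those of RRP9, UTP7 (-2.46) and UTP30 (YKR060W, -2.45), and the largest those of UTP13 (-7.38), ROK1 (-6.51) and IMP3 (-5.90). IMP3 and UTP30 had no count in replicate 2 of the 7 h cells, and without replicate 1 of those cells their values were 1.59 and 3.98 with no call.

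Poly(A) tag counts, from the other library type, were tested in the same way. From 1 h 44 of 44 members rose at 5 min (median 3.93; 13% of 5232 genes tested), 38 rose from 5 to 20 min (median 1.95; 21.2% of genes) and 44 stood above the start at 20 min (26% of genes). From 7 h 40 rose at 5 min (15.4% of genes), 18 fell from 5 to 20 min (median -1.18; 8.1% of genes) and 17 stood above the start at 20 min (6.1% of genes). At 7 h before transfer 19 were above 1 h (17.8% of genes). Tags before transfer at 1 h were few: the 44 genes had 216 and 89 in the 2 libraries, and 14 and 20 members had 0. Members with few tags there pass the filter on low counts only where other groups hold more. Counts of members that use these 1 h libraries, also in the differences at 5 and 20 min, are thus partly set by the filter. In the tests of the difference between the series 2 members, UTP11 and UTP18, responded less from 7 h at 5 min (1.26% of genes), 38 at 20 min (18.5% of genes) and 39 in the change from 5 to 20 min (20.6% of genes). UTP11 and UTP18 had 0 tags in both 1 h libraries before transfer, so their ratios from 1 h have no finite estimate. With a floor of 3 counts there, the ratios at 5 min are 26.7 for UTP11 and 13.2 for UTP18. The exact counting intervals start at 21.3 and 10.3. NOP56 had 45 and 66 tags at 5 min and 978 and 332 at 20 min from 1 h, and 385 and 343 and then 102 and 37 from 7 h. Its difference was -6.20 on the log2 scale (adjusted p = 7.08e-12, edgeR), and that of KRE33 was -6.28. Both assays place the 20 min libraries of NOP56 above those of 5 min from 1 h and below them from 7 h. Under library totals 19 members rose in tags from 5 to 20 min from 1 h.

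After return from 1 h part of the members had longer tails at 5 min than at 20 min. Of 27 members with at least 20 tags in all 4 libraries, 9 became shorter from 5 to 20 min and 0 longer (median -7.65 nt), where of 1964 genes tested 14% became shorter and the median was 0.41 nt. NOP1 (YDL014W) averaged 48.0 and 53.5 nt at 5 min and 31.5 and 28.9 nt at 20 min in the 2 libraries each (-20.5 nt, SE 2.72 nt, limma, Benjamini-Hochberg adjusted p = 0.00078). SNU13 averaged 46.0 and 48.2 nt and then 30.2 and 27.1 nt (-18.4 nt, SE 4.93 nt, limma, Benjamini-Hochberg adjusted p = 0.0219). MPP10 averaged 44.9 and 49.3 nt and then 30.6 and 28.8 nt (-17.4 nt, SE 3.36 nt, limma, Benjamini-Hochberg adjusted p = 0.00432). For each of the 3 both libraries at 20 min lay more than 10 nt under both at 5 min. The other 6 were ENP2 (-17 nt), RRP9 (-15 nt), UTP11 (-13.3 nt), DBP4 (-12.4 nt), NOP56 (-12.4 nt) and SOF1 (-9.73 nt). The largest difference above 0 was that of DBP8, at 8.24 nt (limma, adjusted p = 0.13). Without replicate 2 of 20 min 3 members were called, and with a minimum of 50 tags 4. Of 19 other small-subunit factors with enough tags, 5 became shorter.

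**Figure D4:**
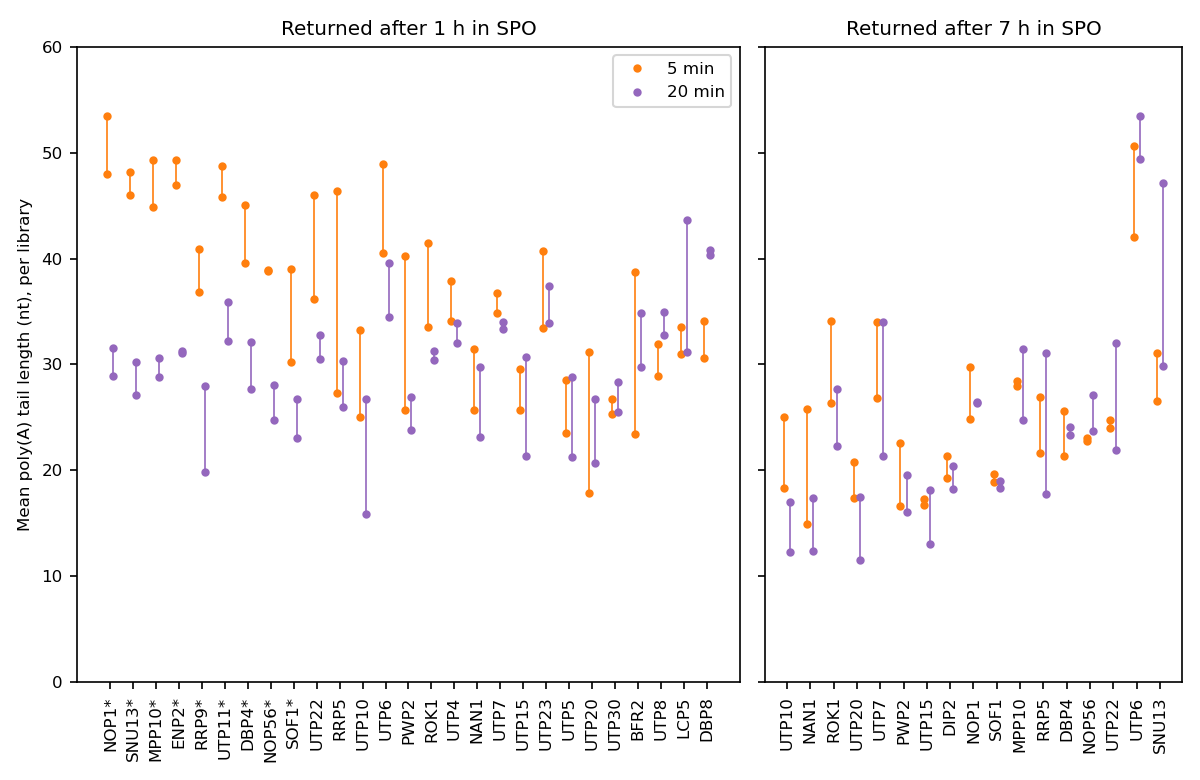
Mean poly(A) tail length in nt of the members tested between 5 and 20 min in YPD, 27 after return from 1 h (left) and 17 from 7 h (right). Points are libraries, lines join the 2 libraries of a group, and asterisks mark the 9 members with an adjusted p under 0.05. In those 9 both 20 min libraries lie under both 5 min libraries.

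From 7 h NOP1 and NOP56 had tails under 30 nt at both times. NOP1 averaged 29.8 and 24.8 nt at 5 min and 26.4 and 26.4 nt at 20 min, and NOP56 23.0 and 22.8 nt and 23.7 and 27.1 nt, with libraries that overlapped or nearly so. Of 17 members tested 0 changed from 5 to 20 min (median -0.89 nt; all genes -2.41 nt), where 0.111% of all genes changed in either direction; at 5 min and at 20 min against before transfer 4 members could be tested and 0 changed, where 0% and 0.117% of genes did. In these 3 limma tests 0 members had an unadjusted p under 0.05. In the test of the difference, added after these values had been seen, the change from 7 h minus that from 1 h was above 0 in 4 of 16 members: NOP1 (19.6 nt), SNU13 (28.1 nt), MPP10 (17.3 nt) and NOP56 (14.9 nt), against 9.91% of 1665 genes. These 4 had shortened from 1 h. From 7 h NOP1 and MPP10 differed by -0.89 and -0.11 nt, and NOP56 and SNU13 by 2.51 and 9.67 nt. The SNU13 libraries at 20 min from 7 h had an SD of 12.2 nt. None of the 4 passed the limma test from 7 h (adjusted p = 0.567 to 0.993). One library changes this count: it was 2 without replicate 2 of 5 min from 1 h, or without either 5 min replicate from 7 h. Weighted over all member tags, the mean tail was 38.8 and 37.7 nt at 5 min from 1 h, where all tags of the libraries averaged 27.4 and 24.2 nt. At 20 min it was 30.7 and 26.6 nt, beside 31.8 and 29.8 nt for all tags. From 7 h it was 27 and 23.5 nt at 5 min, beside 27.3 and 23.8 nt. These weighted means were not tested.

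Regulators of ribosome biogenesis genes or of ribosomal protein genes were read from a list of 8: SFP1, STB3, DOT6, TOD6, SCH9, FHL1, IFH1 and CRF1. The counts that follow take the 8 together. From 0 to 1 h in SPO 1 of them rose and 3 fell, where 28.3% of all genes rose and 29.2% fell. At 5 min in YPD from 1 h 5 rose and 3 fell (27.4% and 46.6% of all genes), and from 7 h 4 rose and 1 fell (26.3% and 23.1%). TOD6, a repressor that binds PAC, moved in the direction of most members in these comparisons: it was at 99.9 and 116 CPM at 0 h and 14.3 and 11.0 CPM at 1 h, and at 14.8 and 14.5 CPM before transfer, 282 and 211 CPM at 5 min and 495 and 505 CPM at 20 min from 1 h. From 7 h it rose at 5 min and fell after it, with 16.8 and 39.7 CPM before, 148 and 169 CPM at 5 min and 85.3 and 66.2 CPM at 20 min (log2 fold change from 5 to 20 min -1.01, adjusted p = 9.42e-05, edgeR). DOT6, the paralogue of TOD6, went the other way from 1 h, with 348 and 365 CPM before transfer, 258 and 195 CPM at 5 min and 164 and 136 CPM at 20 min, and fell at each step (log2 fold changes -0.66, adjusted p = 0.000184, and -0.60, adjusted p = 0.000758, edgeR). STB3, a repressor that binds RRPE, was at 123 and 114 CPM before transfer and 40.1 and 27.2 CPM at 5 min. IFH1, a coactivator of ribosomal protein genes, was at 1893 and 1878 CPM at 5 min and 706 and 615 CPM at 20 min from 1 h, and at 369 and 612 CPM and then 2001 and 1967 CPM from 7 h. IFH1 fell after 5 min from 1 h (log2 fold change -1.52, adjusted p = 1.24e-11, edgeR) and rose from 7 h (2.00, adjusted p = 1.92e-13), in each case against the direction of most processome genes. Levels of mRNA do not report the activity of these regulators.

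In the single libraries of the third experiment the members were lower in sporulation than in vegetative growth, as in the time course, but no difference has a replicate check. A difference is counted where it exceeds 1 log2 unit of CPM (prior count of 2) or 10 nt of tail, sizes that 0.45% to 12.6% (median 1.48%) and 0% to 10.9% (median 3.21%) of genes passed between replicates of the first 2 experiments. The 12.6% came from the pair with the library of 132594 counts, and the RNA-seq libraries of Pre and Mei held 178152 to 574212 counts. In WT the summed level was 16377 CPM in Veg, 8273 CPM in Pre and 1460.2 CPM in Mei. From Veg to Pre 15 of 44 were lower (median -0.83; 29.6% of genes, median -0.31), led by LCP5 (-1.91), NOP1 (-1.81) and SNU13 (-1.74), and with library totals as the scaling 3 were. From Veg to Mei 43 of 44 were lower (median -3.13; 29.1% of genes). RRP5 was at 860.5 CPM in Veg and 11.7 CPM in Mei (log2 difference -5.84). UTP23 and EMG1 had 1 count each in Mei, with ratios of 106 (exact 95% counting interval 18.8 to 4211) and 104 (18.4 to 4127). The exception was ROK1, at 187 CPM in Veg and 110.3 CPM in Mei (-0.74). In the libraries fragmented before ligation 42 of the 42 members compared were lower in Mei than in Veg (median -3.25, beside -3.23 for the same members in the main protocol).

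In Veg 1 member was lower in ccr4delta/delta (UTP30, 79.7 CPM in WT and 36.4 CPM; 2.31% of genes) and 7 in pop2delta/delta (UTP23, KRR1 and SNU13 first; 7.92% of genes). In xrn1delta/delta 11 were lower (10.3% of genes), with SNU13 at 833 CPM in WT and 278 CPM (-1.57), then UTP4 (-1.40) and UTP20 (-1.39). With library totals the 3 counts were 0, 0 and 3 higher with 0 lower, so the direction of the counts in xrn1delta/delta depends on the scaling. The members' median minus that of all genes was -0.51 there under TMM and -0.48 under library totals. The fragmented-first libraries gave 8 lower in xrn1delta/delta.

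In Pre the summed level was 2321 CPM in ccr4delta/delta and 2273 CPM in pop2delta/delta, beside 8273 CPM in WT and 9375 CPM in xrn1delta/delta. In ccr4delta/delta 38 of 43 members were lower than in WT (median -1.79; 16.2% of genes), led by UTP9 (-3.41), ECM16 (-3.11) and UTP8 (-2.77), and UTP30 had too few counts. In pop2delta/delta 40 of 44 were lower (median -1.86; 15.4% of genes). ROK1 was at 159 CPM in WT and 16.8 CPM in pop2delta/delta (-3.01), BFR2 was at -3.17 and UTP9 at -2.91. SOF1 was the least changed in both, at 110.0 CPM in WT, 86.5 CPM in ccr4delta/delta and 89.0 CPM in pop2delta/delta. In xrn1delta/delta 3 were higher and 2 lower (20.2% and 14.6% of genes). NOP56 was the highest of them, at 535 CPM in WT and 1480.3 CPM (1.46), and IMP3 the lowest (-1.49). Genes of meiotic entry differed between these cultures too. IME1, the activator of that entry, was at 3046 CPM in WT and at 535, 389.8 and 37.0 CPM in ccr4delta/delta, pop2delta/delta and xrn1delta/delta, and DMC1, a meiotic recombinase, was at 75.9 CPM in WT and at 5.41, 20.2 and 7.04 CPM. Both were below WT in all 3 deletion libraries, as was IME2, but other genes of meiotic entry and prophase were not. ZIP1 was at 18.97 CPM in WT and 33.44 CPM in xrn1delta/delta. HOP1 was at 11.4 CPM in WT and 11.8 CPM in pop2delta/delta. SPO11 was at 0 CPM in WT and 5.28 CPM in xrn1delta/delta. The part of these differences in the members' levels was not tested.

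In Mei the members' tag levels had medians above WT in the deletion strains. The median log2 difference was 1.07 over 43 members in ccr4delta/delta, 0.51 over 43 in pop2delta/delta and 1.05 over 44 in xrn1delta/delta, where over all genes it was 0.11, 0.09 and 0.11. In RNA 9, 14 and 11 members were left out for a mean under 10 counts in the 2 libraries. That minimum keeps members low in WT only where they are high in the deletion library, so the RNA counts that follow are partly set by it. In ccr4delta/delta 16 of 35 members were higher and 1 lower (median 0.90; 22.7% and 22.5% of genes), in pop2delta/delta 9 of 30 higher and 1 lower (19.9% and 22% of genes), and in xrn1delta/delta 22 of 33 higher and 0 lower (median 1.44; 18.9% of genes higher). With RLE in place of TMM factors, a scaling added after seeing the data, 8 were higher and 5 lower in pop2delta/delta. The 1 lower member under TMM was ROK1 in both, at 110.3 CPM in WT, 51.3 CPM in ccr4delta/delta and 34.1 CPM in pop2delta/delta. Among the 35 members compared in ccr4delta/delta, RRP5 was highest against WT, at 98.1 CPM beside 11.7 CPM. EMG1 and UTP23, left out there for too few counts, had 1 count each in WT. In ccr4delta/delta they had 18 and 15 counts, with ratios of 17.1 (exact counting interval 2.70 to 712) and 14.2 (2.19 to 600). In xrn1delta/delta NOP56 was at 1098 CPM beside 47.0 CPM in WT (4.45), NOP58 at 756 CPM beside 44.6 CPM (3.99), and NOP1 at 61.2 CPM beside 35.2 CPM. Of the other U3 snoRNP proteins RRP9 was at 2.52, with 4 counts in WT and 16 in xrn1delta/delta, and SNU13 at -0.51. UTP23 had 1 count in WT and 56 in xrn1delta/delta, a ratio of 104 (18.0 to 4193). The meiotic state of these cultures differed from that of WT: at 5 h in SPO IME2 was at 3679 CPM in WT and at 22.3, 139 and 568 CPM in ccr4delta/delta, pop2delta/delta and xrn1delta/delta, and NDT80 was at 1528 CPM in WT and at 8.92, 6.20 and 35.0 CPM. The part of this difference in the members' levels was not tested.

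**Figure D5:**
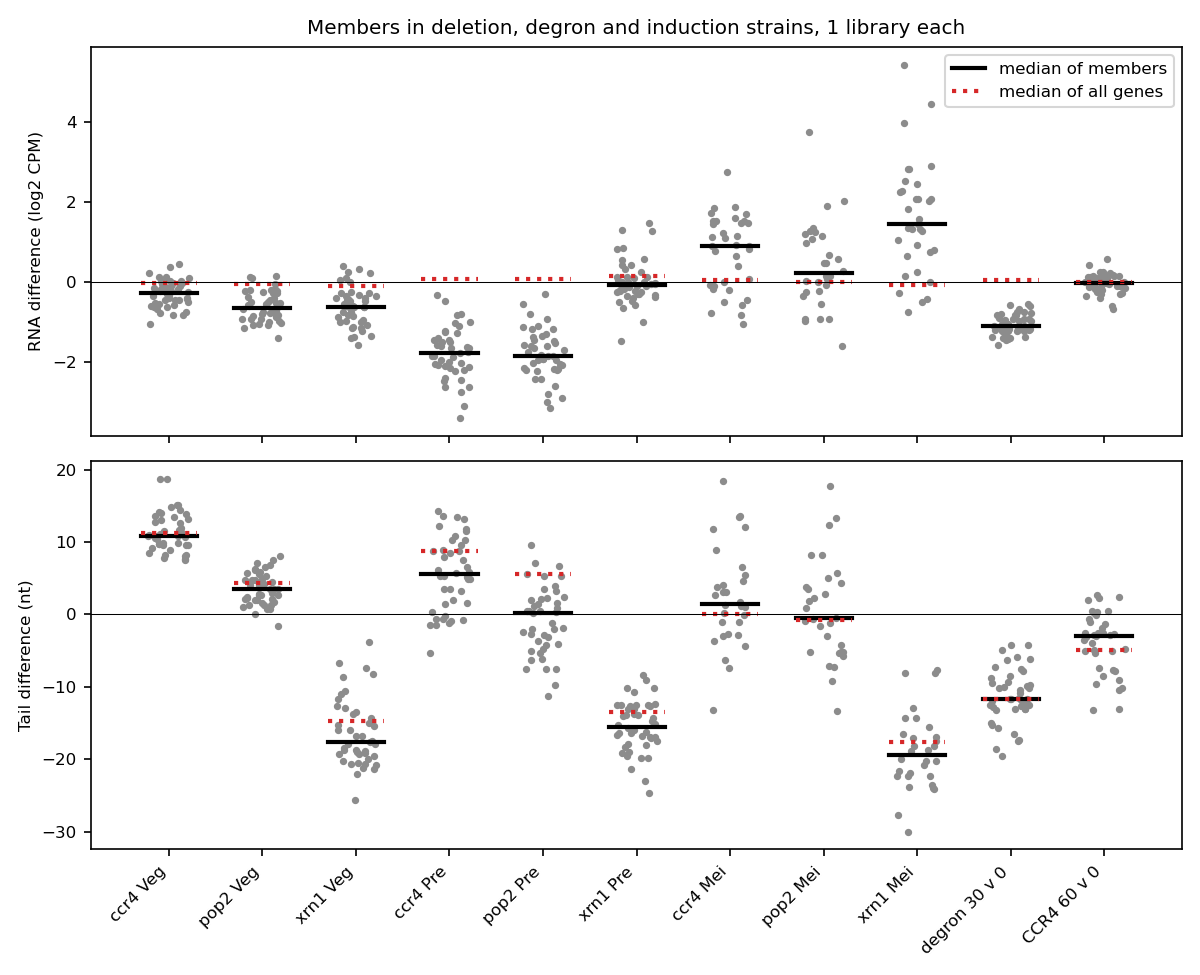
Differences of members in the deletion strains from WT, and between times in the degron and CCR4 induction experiments, with 1 library per group. The upper panel gives the RNA difference in log2 CPM and the lower the tail difference in nt; points are members, black bars their median and dotted red bars the median of all genes compared. The members' median RNA difference is -1.79 and -1.86 in Pre for ccr4delta/delta and pop2delta/delta, and the tails lie under 0 in all 3 xrn1delta/delta stages.

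The members' tail differences in the deletion strains had medians near those of all genes in Veg. There 27 of 43 members had tails longer by over 10 nt in ccr4delta/delta (median 10.9 nt; 65.1% of genes, median 11.3 nt), 0 of 43 in pop2delta/delta (median 3.50 nt; 9.98% of genes longer, median 4.29 nt), and 38 of 43 had shorter tails in xrn1delta/delta (median -17.6 nt; 75.5% of genes, median -14.7 nt). UTP20 was at 29.9 nt in WT and 48.7 nt in ccr4delta/delta. BFR2, an assembly factor that binds LCP5 and ENP2, was at 44.4 nt in WT and 18.8 nt in xrn1delta/delta. SNU13 changed least in xrn1delta/delta, from 30.5 nt to 26.6 nt, and had the lowest RNA ratio of the 44 there. In Pre 10 of 42 were longer in ccr4delta/delta (median 5.52 nt; 41.7% of genes, median 8.71 nt), 1 of 43 changed in pop2delta/delta (KRR1, -11.3 nt; 30.8% of genes in either direction), and 42 of 44 were shorter in xrn1delta/delta (median -15.5 nt; 74% of genes), led by KRE33 at 41.2 nt in WT and 16.6 nt. In Mei 5 of 30 were longer and 1 shorter in ccr4delta/delta (12.4% of genes in either direction), 3 longer and 1 shorter in pop2delta/delta (12.3% of genes in either direction), and 27 of 30 shorter in xrn1delta/delta (median -19.5 nt; 90.9% of genes). ROK1 had the largest loss, from 48.0 nt in WT to 18.0 nt. Within WT 1 of 43 was shorter in Pre than in Veg (BFR2, -11.3 nt; 19.2% of genes) and 4 of 30 in Mei (UTP10 first, at 35.8 nt in Veg and 20.8 nt in Mei; 8.53% of genes). BMS1 had too few tags in these comparisons, except in Pre between WT and xrn1delta/delta.

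In degron-Xrn1 cells member RNA was lower at 30 min than at 0 min. Member tails were shorter too, by a median near that of all genes. The summed level was 8672 CPM in the control, 12431 CPM in degron-Xrn1 cells at 0 min and 5942 CPM at 30 min. From 0 to 30 min 26 of 44 were lower (median -1.11; 4.95% of genes, median 0.04). BMS1 was at 345 CPM and then 115 CPM (-1.58), KRE33 at 274 CPM and then 99.6 CPM (-1.45), and RRP5 at 608 CPM and then 226 CPM (-1.43). All 44 differences were below 0, the smallest that of UTP9 (-0.56), and with library totals 8 were beyond 1 unit. Before induction degron-Xrn1 cells were already above the control: 2 members (KRR1 and IMP3) were beyond 1 unit (2.91% of genes) and the median was 0.54. The level of XRN1 mRNA does not check the degron, which acts on the protein. Tails were shorter in 27 of 43 members at 30 min (median -11.6 nt; 61% of genes, median -11.7 nt), with BFR2 at 45 nt and then 25.5 nt, and in 2 of 43 (ECM16 and NAN1) at 0 min against the control (5.13% of genes).

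Member RNA was near its starting level after induction of CCR4. CCR4 itself was at 141 CPM in the control, 105 CPM at 0 min and 489.8 CPM at 60 min. From 0 to 60 min 0 of 44 members were beyond 1 unit in either direction (5.03% of genes), and SNU13 had the lowest value, at 422 CPM and then 263 CPM (-0.68). At 0 min 0 of 44 differed from the control by that much (0.86% of genes). Tails were shorter by over 10 nt in 4 of 38 members at 60 min (IMP4 first, -13.1 nt; median -2.94 nt; 6.33% of genes, median -4.92 nt) and in 3 of 25 at 0 min against the control (ENP1 first, -17.4 nt; 3.8% of genes).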

How the data were processed

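The members and gene lists were chosen with earlier results of these data known. RNA-seq reads were ribodepleted and poly(A) tags were poly(A)-selected before 3′ adapter ligation, per the labels' protocols. The authors deposited raw counts per gene for the RNA-seq and tag libraries, and the deposited tail values are the mean poly(A) tail length per gene and library in nt. STAR 2.5.3a, bedtools 2.26.0, edgeR and sacCer3 are named in the submitters' processing notes, and the sources used here do not state strand use in counting, so reads of antisense transcripts cannot be told apart.

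Libraries of each of the first 2 of 5 experiments were fitted in 1 model of group means with edgeR 4.0.16 (R 4.3.3): TMM factors, filterByExpr, the quasi-likelihood test and Benjamini-Hochberg adjustment over all genes tested, with a threshold of 0.05. Tail lengths were tested with limma 3.58.1 (robust, with a trend on tags) where a gene had 20 or more tags in each library of the groups compared. Single libraries were compared without a test, by log2 CPM with a prior count of 2 and a mean of at least 10 counts. DESeq2 1.42.0, other scalings and filters, a replicate block and leaving out each replicate were alternatives. The main edgeR fits were tried on simulated data for 1 comparison per assay and experiment, and the tail fit for 1 comparison of the return to YPD. The alternatives and the differences between the series were not simulated. The 3 tests of the change from 5 to 20 min between the series were added after seeing the data. Ratios of counts carry exact 95% intervals, which cover counting error only, as do floors of 3 counts.

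Named genes are 24 fixed members, the 3 largest and 3 smallest values per comparison, members called against the majority, and members without a value. Of the 6692 genes in the tables, 6008 were matched to the R64 annotation.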

Additional observations from a re-analysis of the deposited data

Results flagged for a closer look

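The results here were singled out because the response to YPD differed between cells from 7 h and from 1 h in SPO in a test of the difference itself. In RNA 42 members responded less from 7 h at 5 min and 44 at 20 min. In the change from 5 to 20 min, 41 members were lower and 1 was higher from 7 h. In tags the corresponding numbers were 2, 38 and 39, and in tail length the change from 7 h minus that from 1 h was above 0 in 4 members, whose tails shortened from 1 h and did not change past the threshold from 7 h. The 2 members called in tags at 5 min had no tags before transfer at 1 h.

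On the log2 scale the differences at 5 min in RNA were -5.77 for ROK1, -5.24 for UTP13 and -4.59 for UTP5. At 20 min they were -7.38 for UTP13, -6.51 for ROK1, -5.90 for IMP3 and -2.45 for UTP30. In the change from 5 to 20 min they were -3.53 for EMG1, -3.51 for RRP5, -3.21 for UTP20, -2.89 for NOP56 and 0.71 for UTP5. In tags that change differed by -6.28 for KRE33 and -6.20 for NOP56. In tail length it differed by 19.6 nt for NOP1, 28.1 nt for SNU13, 17.3 nt for MPP10 and 14.9 nt for NOP56.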

How the results depend on the processing

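Scaling by library totals alone, in place of TMM, gave 24 changed members in RNA from 5 to 20 min from 1 h (18 higher and 6 lower) and 19 in tags. Under it NAN1 and BFR2 had log2 fold changes of -0.41 and -0.42 there, both past the threshold, and RRP9 one of 0.0143 from 1 to 5 h. In the single libraries it gave 3 members in RNA for WT Pre against Veg, 0 for ccr4delta/delta and 0 for pop2delta/delta in Veg, 3 higher for xrn1delta/delta in Veg, 8 for the degron at 30 min and 1 for CCR4 induction at 60 min. DESeq2 gave 15 in RNA from 5 to 20 min from 7 h, and in tags 2 (1 against 0 h), 0 (9 against 5 h), 0 (9 against 0 h) and 1 (response at 5 min, between the series). Without a filter on low counts, tags gave 11 (1 against 0 h), 2 (5 against 1 h), 1 (9 against 5 h) and 2 (9 against 0 h).

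A mean of at least 50 counts left 8 members beyond 1 log2 unit in Pre for ccr4delta/delta, 8 for pop2delta/delta and 2 for xrn1delta/delta, and 3 in Mei for xrn1delta/delta, since fewer members were compared. With at least 50 tags, tails changed in 4 members from 5 to 20 min from 1 h and in 1 in the difference between the series. In the single libraries the numbers were 0 (WT Mei), 1 shorter (ccr4delta/delta Mei), 0 (pop2delta/delta Mei), 8 (xrn1delta/delta Mei), 1 (degron at 0 min), 0 (CCR4 at 60 min) and 1 (CCR4 at 0 min). With at least 10 tags they were 7 for WT Mei, pop2delta/delta Mei and CCR4 at 0 min alike. After centring on the median of all genes, tails changed in 7 members in the difference between the series, in 5 for WT Pre and 3 for ccr4delta/delta Pre with the direction reversed, in 0 for ccr4delta/delta Veg, in 10 for pop2delta/delta Pre, in 2, 1 and 2 for xrn1delta/delta in Veg, Pre and Mei, and in 0 for both degron comparisons and CCR4 at 60 min. The cause of these shifts was not tested.

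Leaving out 1 replicate at a time, RNA counts ran 44 to 44 (1 against 0 h), 18 to 31 (5 against 1 h), 27 to 29 (9 against 5 h) and 14 to 27 (9 against 0 h). From 1 h they ran 44 to 44 at 5 min, 38 to 40 from 5 to 20 min and 44 to 44 at 20 min, and from 7 h 43 to 44, 9 to 24 and 28 to 44. They were 19 to 39 for 7 h against 1 h, and 23 to 43, 37 to 44 and 38 to 42 for the differences between the series at 5 min, at 20 min and from 5 to 20 min. Tag counts in the same order ran 2 to 6, 1 to 2, 0 to 0 and 0 to 1, then 37 to 42, 26 to 35 and 44 to 44, then 35 to 39, 12 to 14 and 10 to 14, then 9 to 19, and 0 to 2, 26 to 37 and 35 to 39. The tag calls from 5 to 9 h were thus lost without any 1 of the 4 libraries. Tail counts ran 3 to 9 from 5 to 20 min from 1 h and 2 to 5 for the difference between the series, and 0 otherwise.

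Named members whose sign changed without 1 replicate, none of them past the threshold there, were RRP9 (-0.20 to 0.12) and IMP3 (-1.28 to 0.17) from 1 to 5 h, KRE33 (-0.69 to 0.19) and ENP2 (-0.27 to 0.14, with 0.05 without replicate 1 of 5 h) from 5 to 9 h, and RRP9 (-0.39 to 0.24, with 0.11 without replicate 2 of 1 h) for 7 h against 1 h. In the differences between the series they were KRE33 (-1.65 to 5.18) and UTP30 (-1.20 to 5.62) at 5 min, and IMP3 (-9.82 to 1.59) and UTP30 (-2.84 to 3.98) at 20 min, all without replicate 1 of the 7 h cells. Without that library UTP22 (6.15) and IMP3 (3.23) at 5 min, UTP22 (3.77) and KRE33 (2.13) at 20 min, and IMP3 (-3.98) and DBP8 (-0.22) for 7 h against 1 h also had the opposite sign to their called values.

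The labels give same-numbered replicates no shared batch, so the numbers were not taken as pairs in the main fits. Part of their deviation was shared in SPO, and counts with a replicate block are also given. In SPO same-numbered libraries deviated with correlations of -0.16 to 0.40 in RNA (22 of 45 over 0.1), 0.04 to 0.20 in tags (36 of 45) and -0.14 to 0.35 in tails (19 of 45), and the median tail of all genes was shorter in replicate 1 at all 10 hours. On return to YPD they ran from -0.07 to 0.08 (0 of 15), -0.09 to 0.14 (1 of 15) and -0.18 to 0.10 (0 of 15). With a replicate block the RNA counts were 44, 32, 32 and 29 in SPO, 44, 43 and 44 from 1 h, 44, 25 and 44 from 7 h, 39 for 7 h against 1 h, and 42, 44 and 42 for the differences between the series; tag counts were 9, 1, 2 and 1, then 44, 37 and 44, then 39, 18 and 17, then 19, and 2, 38 and 38, and tail counts were 9 and 4. Depth limits the RNA values at 7 h before transfer, where 1 library holds 132594 counts, and the tails in SPO.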

Other observations

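Tags of BMS1 carried shorter tails than those of the other members in the xrn1delta/delta libraries, with means of 6.46, 7.14 and 7.49 nt on 28, 118 and 85 tags in Veg, Pre and Mei. In WT the same gene averaged 13.5, 15.5 and 18.4 nt in Veg, Pre and Mei, on only 18, 22 and 5 tags.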
